A study of Nasonia vitripennis with 140 samples.

Results

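A set of 30 of the 15471 genes counted in the parasitoid wasp Nasonia vitripennis was abundant in the adult male abdomen, nearly missing from the adult female abdomen, and not yet on in male larvae. They were chosen from the levels in GFP-injected wasps, as group means of CPM (a gene's counts per 1000000 counts of its library). A gene had to reach 50 CPM in male abdomens, to stay at or below 1% of that in female abdomens, and to lie below 5 CPM in males at both day 7 and day 9. Of 87 genes that met the first pair of criteria, 51 were already on in males by day 7, 5 started at day 9, and 1 was left out because of its symbol, CYP4AB14. Of the 30 that remained, 28 had reached 5 CPM in GFP male pupae (pupal onset), and LOC100114997 and LOC100119652 had not (adult onset). These values chose the genes, so the male excess in GFP abdomens and the low larval levels are a description and not a result.

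The wasps were of the laboratory strain AsymCX, reared on Calliphora hosts, and every wasp sequenced or its mother had received dsRNA, against either dsx or GFP, at 4 µg/µl. Males and females were sequenced in 5 libraries for each of 28 groups, 140 in all. Larvae were injected at day 4 or day 6 and collected at day 7 or day 9, and pupae were injected at day 8 and collected at day 11, with 3 individuals in a library. Adult heads, thoraces and abdomens came from wasps injected as day 8 pupae and dissected 1 day after emergence. The labels do not say whether the parts of 1 library number came from the same adults. Embryos of day 1 were laid by mothers injected as day 8 pupae: virgin mothers gave the male embryos and mated mothers the female ones, a minority of which are male, per the labels' protocols. The GFP groups are the injection controls, and no uninjected group is used here. The labels do not say that the replicates came from separate cultures, so the p-values measure the spread between these libraries.

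Males of Nasonia, as in other Hymenoptera, develop from unfertilised eggs. The gene dsx (doublesex) encodes a transcription factor near the end of the insect sex-determination pathway; its transcript is spliced differently in the sexes, and the male and female proteins regulate different sets of genes. The male abdomen holds the testes, the seminal vesicles and the accessory glands, and in wasps of this kind sperm are formed in the pupa, so that males emerge ready to mate. The accessory glands of insects make seminal fluid proteins, among which serine proteases are common.

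Libraries held 59.2 M to 112.9 M counts, and those of abdomens 67.8 M to 101 M. Dsx counts did not fall throughout the groups labelled dsx. The mean was lower with the dsx label in thoraces and embryos of males and in thoraces and day 9 larvae of females, with overlapping libraries in each, and higher in the other 10 pairs of groups. Dsx averaged 549 ± 34.9 CPM in dsx-labelled male abdomens and 464 ± 18.4 CPM in GFP male abdomens (SD, n = 5 each), and 302 ± 15.2 CPM in dsx-labelled male pupae and 116 ± 5.94 CPM in GFP male pupae. Dsx counts alone therefore do not check the knockdown, and the groups are called dsx-labelled below. Dsx-labelled male abdomen replicate 4 stood apart in the ovary markers nanos and oskar, whose summed level was 39 CPM there, against 0.477 to 1.47 CPM in GFP male abdomens and 640 to 744 CPM in GFP female abdomens. The 4 calls in male abdomens given below held without that library, and LOC100678065 was then called as well. Dsx-labelled male head replicate 3 stood apart in many of the 30 genes and is described with the heads.

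Of the 30 genes, 27 matched a gene of RefSeq (assembly Nvit_psr_1.1), 26 of them protein coding and 1, LOC100678162, a long non-coding RNA. Apart from SP19, whose symbol is that of a serine protease, the genes carry only locus numbers, with no function attached in the tables used here. Among 51 genes with serine protease symbols, 14 reached 50 CPM in GFP male abdomens, and SP19 was the 1 that met the male and female abdomen criteria at any onset. Of the 27, 8 lie next to another of the 30 in the RefSeq gene order, in 3 groups. LOC100119680, LOC100679870 and LOC100679833 form a run, LOC103316012, LOC100678323 and LOC100117783 form another, and LOC103315575 lies beside LOC100680543. LOC100679935, which also lies beside LOC100119680, fell just outside the rule at 45.42 CPM in GFP male abdomens. Of the 27, 16 overlap another annotated gene. The sources used here do not say whether counting used strand, so reads of such a gene and its partner cannot be told apart; LOC100121766 and LOC100121918 are among these.

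The members nearest the limits of the rule were LOC100119652 and LOC103315671 at 51.48 and 54.2 CPM in GFP male abdomens, and LOC100679726, at 46 CPM, was the nearest gene outside. In the share found in female abdomens LOC100119652 (0.8791%) and LOC100678065 (0.7068%) were the closest inside, and LOC100124027 (2.181%) and LOC100121908 (3.629%) the closest outside. LOC100678651 lay just inside the day 9 limit at 3.561 CPM, with LOC100123094 just outside at 5.673 CPM. SP19 lay just inside the day 7 limit at 3.826 CPM, with LOC100679190 just outside at 5.089 CPM. At the pupal limit, LOC103315671 and LOC100121918 were at 5.716 and 5.803 CPM in GFP male pupae, against 0.9342 and 0.05038 CPM for the adult-onset pair.

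**Figure D1:**
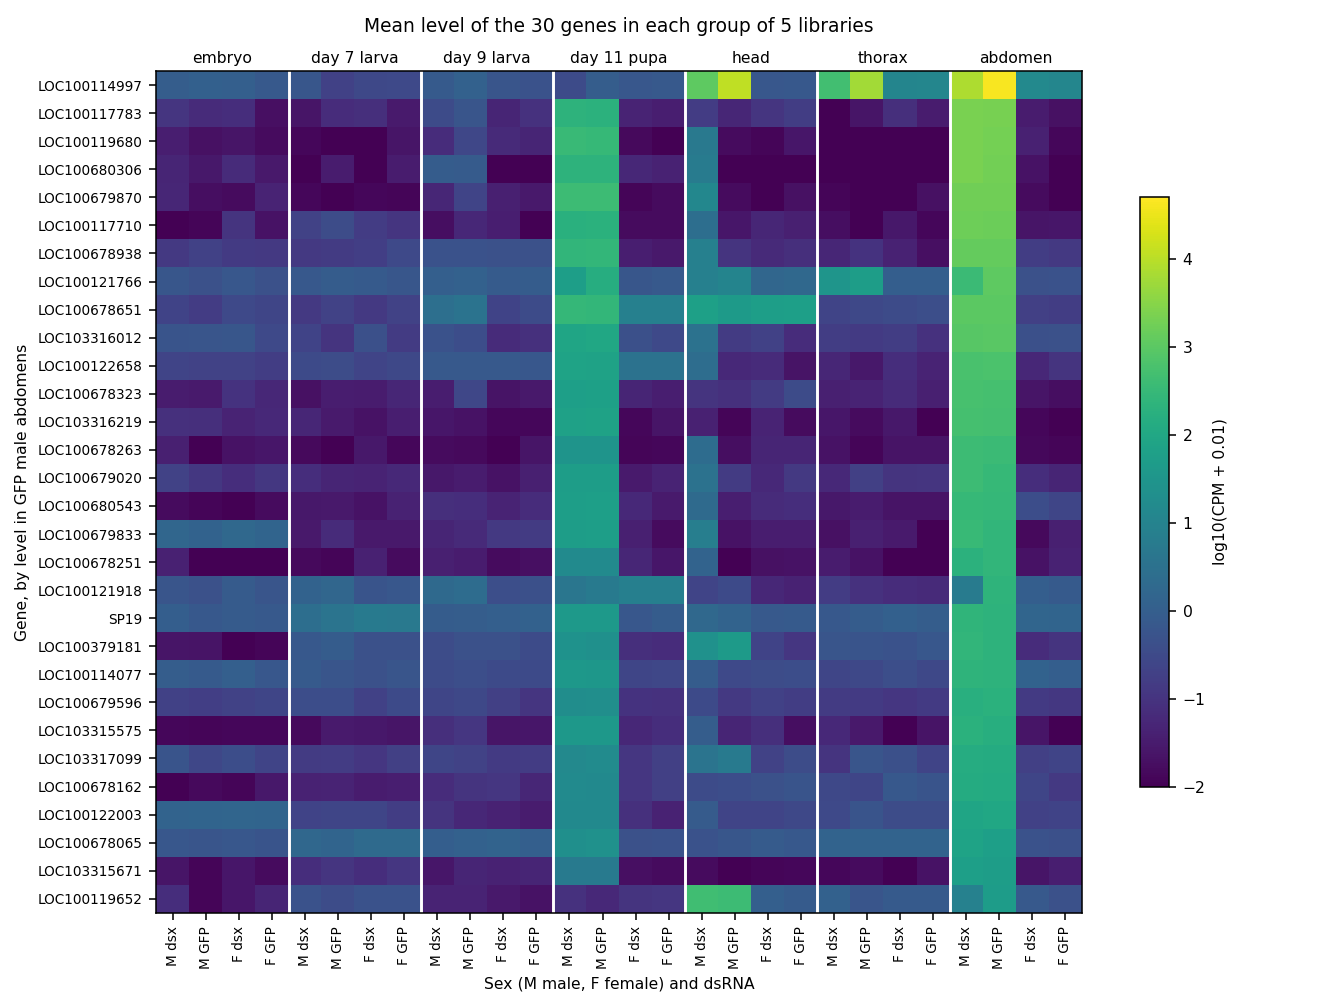
Mean level of each of the 30 genes in the 28 groups, as log10(CPM + 0.01), with stages and body parts from left to right and, within each, dsx-labelled and GFP males and then dsx-labelled and GFP females. The pupal-onset genes other than LOC100121918 form a band in male pupae and male abdomens of both labels, and LOC100114997 and LOC100119652 are also high in male heads.

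In the sum over the 30 genes, males first stood apart from females in day 9 larvae, below the limit the rule set. The 30 genes summed to 10.31 to 17.12 CPM in dsx-labelled males and 14.21 to 18.82 CPM in GFP males, against 5.643 to 8.613 CPM in dsx-labelled females and 6.195 to 7.972 CPM in GFP females, so no male library fell within the female range. LOC100678651 contributed most, with a mean of 2.78 CPM in dsx-labelled males (0.567 to 4.82) and 3.56 CPM in GFP males (2.42 to 5.46), against 0.212 and 0.326 CPM in dsx-labelled and GFP females. LOC100121918 averaged 1.9 and 2.3 CPM in dsx-labelled and GFP males, against 0.386 and 0.417 CPM in dsx-labelled and GFP females. LOC100680306 averaged 0.857 CPM in dsx-labelled males and 0.850 CPM in GFP males, and had 0 counts in all 10 female day 9 libraries. Not every gene shared the male excess. SP19 averaged 0.876 and 0.916 CPM in dsx-labelled and GFP males, against 1.07 and 1.2 CPM in dsx-labelled and GFP females. At day 7 the sums overlapped: 8.953 to 13.44 CPM in dsx-labelled males, 9.695 to 15.25 CPM in GFP males, 10.93 to 14.66 CPM in dsx-labelled females and 10.86 to 16 CPM in GFP females. LOC100121918 already differed then, with 88 to 190 counts in GFP male and 14 to 81 counts in GFP female libraries. In dsx-labelled larvae of day 7 it had 70 to 130 counts in males and 18 to 57 counts in females. In embryos no gene of the 30 averaged 5 CPM in any group.

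By day 11 the pupal-onset genes were abundant in males. They summed to 2332 to 3029 CPM in dsx-labelled male pupae and 2474 to 2880 CPM in GFP male pupae, against 17.02 to 29.39 CPM in dsx-labelled female pupae and 18.4 to 24.13 CPM in GFP female pupae. Calls were made with edgeR's quasi-likelihood test over all genes of a stage, at a Benjamini-Hochberg adjusted p below 0.05. In GFP pupae, male against female, 27 of the 30 were higher in males, 0 were lower and 3 were not called, where 31.6% of all genes tested were higher and 32.2% lower in males. GFP male pupae are part of the rule only in splitting the pupal from the adult subset, but the genes were picked as male-specific and had to start somewhere between day 9 and the adult, so this share says little beyond the timing. The 3 without a call were LOC100121918, LOC100114997 and LOC100119652. The 27 that were called had no overlap between male and female libraries, and the share of all genes without overlap was not counted.

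In dsx-labelled pupae, none of which the rule used, 27 genes were again higher in males, 2 were lower and 1 was not called, where 29.6% of genes were higher and 32.3% lower in males. The choice of male-specific genes favours this count too. LOC100119680, one of the most abundant of the group, had 325.6 to 379.8 CPM in dsx-labelled male pupae and at most 0.01301 CPM in dsx-labelled female pupae. LOC100679870 had 343.8 to 434.8 CPM in dsx-labelled male pupae and 1 count in all in the 5 dsx-labelled female pupal libraries. LOC100678651 was the gene of the group with the most reads in female pupae: 8.137 ± 2.37 CPM in dsx-labelled females and 8.064 ± 1.21 CPM in GFP females, against 296.1 ± 22.7 CPM in dsx-labelled males and 273.2 ± 16.4 CPM in GFP males (SD, n = 5 each).

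LOC100121918 ran the other way in pupae. It averaged 4.304 ± 0.698 CPM in dsx-labelled male pupae and 7.873 ± 3.40 CPM in dsx-labelled female pupae, with overlapping libraries (log2 fold change -0.83 ± 0.26 SE, edgeR adjusted p = 0.00929). In GFP pupae the male mean was 5.803 ± 0.329 CPM and the female mean 8.021 ± 2.88 CPM, which was not called (log2 fold change -0.39 ± 0.26, adjusted p = 0.192, edgeR). Its place among the pupal-onset genes therefore rests on a level that both sexes had. LOC100114997, at under 1 CPM on average in pupae of both sexes, was the other gene called lower in dsx-labelled male than in dsx-labelled female pupae (log2 fold change -0.98 ± 0.34, adjusted p = 0.0177, edgeR).

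From pupa to adult abdomen the 26 genes other than LOC100114997, LOC100119652, LOC100121918 and LOC100121766 were higher on average in abdomens under both labels. Mean CPM in abdomens was 3.51 to 13.4 times that in whole pupae in dsx-labelled males (median 7.88 times), and 2.43 to 16 times in GFP males (median 7.35 times). The rule asked for 50 CPM in GFP male abdomens and not in pupae, so the choice of genes favours such a rise. LOC100679726, for example, fell outside the rule at 46 CPM in GFP male abdomens and 50.8 CPM in GFP male pupae. A joint edgeR fit of male pupae and abdomens, added after seeing the data, tested the difference of the label effect, abdomen minus pupa. Of the 30 genes it called 3 higher and 3 lower, where 29.7% of all genes tested were called in either direction. The 3 called higher were all among the 26. These 26 are the genes without a label call in the same abdomens, so their own count cannot be set against that share. The 3 were LOC100678065 at 0.60, LOC100679833 at 0.41 and LOC103315575 at 0.24 on the log2 scale, each a greater gain with the dsx label (edgeR adjusted p = 0.0311, 0.0394 and 0.0263). LOC100679833 and LOC103315575 are named here after their values were seen. A whole pupa and a dissected abdomen differ in what they contain, so these ratios mix a change in level with a change in tissue. In bulk libraries, fewer cells of a type and less RNA per cell cannot be told apart.

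In adult abdomens the dsx-labelled groups were not used by the rule. All 30 genes were higher in dsx-labelled male than in dsx-labelled female abdomens, where 43.7% of genes tested were higher and 42.8% lower in males. The genes were picked for a male excess in GFP abdomens, so the choice favours this count and it says little by itself. For each of the 30 every male library lay above every female library, and the share of all genes parted in this way was not counted. The smallest differences were those of LOC100121918, at 6.254 ± 1.19 CPM in dsx-labelled males and 0.9763 ± 0.244 CPM in dsx-labelled females (edgeR log2 fold change 3.08 ± 0.18, adjusted p = 1.2e-12), and of LOC100119652, at 8.771 ± 2.84 CPM in the same males and 0.7451 ± 0.295 CPM in the same females (edgeR log2 fold change 3.95 ± 0.33, adjusted p = 4.52e-10). At the other end, LOC100680306 had 825181 counts in the 5 dsx-labelled male abdomens and 4 counts in the 5 dsx-labelled female abdomens. LOC100679870 had 649903 counts in dsx-labelled males and 3 counts in dsx-labelled females. In female abdomens, dsx-labelled against GFP, 0 of the 30 were called by edgeR, where 0.00809% of genes tested were called, which is 1 gene. At an unadjusted p below 0.05 edgeR had 5 of the 30 higher and 2 lower, where 1139 of the 12356 genes tested passed in either direction. DESeq2 called 1, the non-coding LOC100678162, and 0.523% of all genes.

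Between dsx-labelled and GFP male abdomens, the group parted into 4 genes that were much lower with the dsx label and 26 that were not called. Of all genes tested, 21.7% were called higher and 17.6% lower in this comparison. The GFP male abdomens are also the libraries in which the rule asked for a high level, so the comparison is not independent of the choice of genes. Of the 30, 4 were lower and 0 higher by edgeR. At an unadjusted p below 0.05 edgeR had 2 higher and 4 lower, where 5839 of the 12356 genes tested passed in either direction. DESeq2 called 9 (4 higher and 5 lower), where it called 17.3% of genes higher and 20.6% lower. With edgeR on these 10 libraries alone 10 were called (5 higher and 5 lower), where 18.7% of genes were called in each direction. LOC100114997, LOC100119652, LOC100121918 and LOC100121766 were called lower in all 15 alternative analyses.

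LOC100114997 was the most abundant member in counts. It had 6950, 10461, 9742, 5466 and 4617 CPM in the dsx-labelled male abdomens, against 50564, 54814, 42930, 38477 and 29533 CPM in the GFP male abdomens. The groups did not overlap. It took 0.745% of all counts in dsx-labelled male abdomens on average (0.462 to 1.05%) and 4.33% in GFP male abdomens (2.95 to 5.48%). Its log2 fold change was -2.51 ± 0.29 (SE; adjusted p = 9e-07, edgeR). Female abdomens had 14.63 ± 5.29 CPM (dsx-labelled) and 12.02 ± 2.71 CPM (GFP).

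LOC100119652, the other adult-onset gene, differed to a like extent from a much lower level. It had 8.174, 12.34, 11.06, 6.483 and 5.801 CPM in the dsx-labelled male abdomens, against 60.82, 58.47, 59.21, 44.77 and 34.12 CPM in the GFP male abdomens, with no overlap (log2 fold change -2.52 ± 0.28, adjusted p = 5.41e-07, edgeR). In the dsx-labelled abdomens, replicates 2, 3, 1, 4 and 5, in that order, ran from the highest to the lowest for both adult-onset genes.

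LOC100121918 showed the greatest fold difference of the 30. It had 6.972, 4.688, 5.543, 7.72 and 6.346 CPM in the dsx-labelled male abdomens, against 271.7, 225, 246.2, 175 and 194.1 CPM in the GFP male abdomens. That was 35.2 times lower, or -5.14 ± 0.17 on the log2 scale (SE; adjusted p = 1.64e-14, edgeR). The level left in dsx-labelled abdomens was of the size seen in pupae of both sexes and above that of female abdomens, where GFP females had 0.7881 CPM.

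LOC100121766 had 230.2, 482.7, 398.6, 421.5 and 305.2 CPM in the dsx-labelled male abdomens, against 1354, 1182, 756.7, 1059 and 1109 CPM in the GFP male abdomens. The groups did not overlap, and the log2 fold change was -1.55 ± 0.24 (SE; adjusted p = 2.64e-05, edgeR).

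The 26 others were set apart by having no call between labels in male abdomens. Adjusted p values above the threshold follow from that choice, which also favours small fold changes. Their log2 fold changes ran from -0.24 to 0.41 with a median of 0.13, and the smallest adjusted p was 0.0802 (edgeR). Of these fold changes 20 were positive, 4 were negative and the rest rounded to 0.00. The standard errors reached at most 0.31. Summed, the 26 genes gave 17151 to 19513 CPM in dsx-labelled male abdomens and 16736 to 18154 CPM in GFP male abdomens. LOC100117783 had 2303 ± 107 CPM in dsx-labelled and 2161 ± 75.2 CPM in GFP male abdomens (SD, n = 5 each; log2 fold change 0.12 ± 0.19, adjusted p = 0.671, edgeR). LOC100679870 had 1751 ± 175 CPM in dsx-labelled and 1783 ± 191 CPM in GFP male abdomens (log2 fold change 0.00 ± 0.12, adjusted p = 0.993, edgeR). SP19 had 246.3 ± 23.8 CPM in dsx-labelled and 219.4 ± 10.8 CPM in GFP male abdomens (log2 fold change 0.19 ± 0.11, adjusted p = 0.183, edgeR). LOC100678065 was nearest to a call, with 77.7 ± 20.4 CPM in dsx-labelled and 59.93 ± 7.06 CPM in GFP male abdomens (log2 fold change 0.41 ± 0.18, adjusted p = 0.0802, edgeR). Without dsx-labelled replicate 4, the library with ovary markers, it was called higher (log2 fold change 0.52, adjusted p = 0.0166, edgeR).

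Of these 26, LOC100680306 and, chosen after their values were seen, LOC100679020 and LOC103315575 had no overlap between the 5 dsx-labelled and the 5 GFP male abdomens. The share of all genes without such overlap was not counted. LOC100680306 had 2073 to 2339 CPM in dsx-labelled and 1767 to 1973 CPM in GFP male abdomens, and a log2 fold change of 0.26 ± 0.14 (adjusted p = 0.152, edgeR; 0.0087 by DESeq2). The coefficient of variation of the 26 had a median of 9.2% in dsx-labelled male abdomens, with a maximum of 26.3%, and a median of 7.21% in GFP male abdomens, with a maximum of 41.4%, that of LOC103317099 (74.39 to 212.7 CPM). A p that misses the threshold does not show that these genes were equal under both labels.

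Among the other male abdomen genes, those on by day 7 had 11 higher and 3 lower of 51 in dsx-labelled male abdomens, and those that started at day 9 had 3 higher and 0 lower of 5, where 21.7% of all genes tested were higher and 17.6% lower. Tissue markers moved in part with the label. The 3 fat body hexamerins summed to 2.13 to 3.36 CPM in dsx-labelled male abdomens and 9.85 to 20 CPM in GFP male abdomens. The muscle tropomyosins Tm1 and Tm2 summed to 909 to 1240 CPM in dsx-labelled and 914 to 1123 CPM in GFP male abdomens. Nearly all of that was Tm1, at means of 1098 CPM in dsx-labelled and 1001 CPM in GFP male abdomens. Tm2 averaged 0.8605 and 1.344 CPM in the same groups. None of these markers was at 0, and the part of other tissues in the fall of the 4 genes was not tested.

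**Figure D2:**
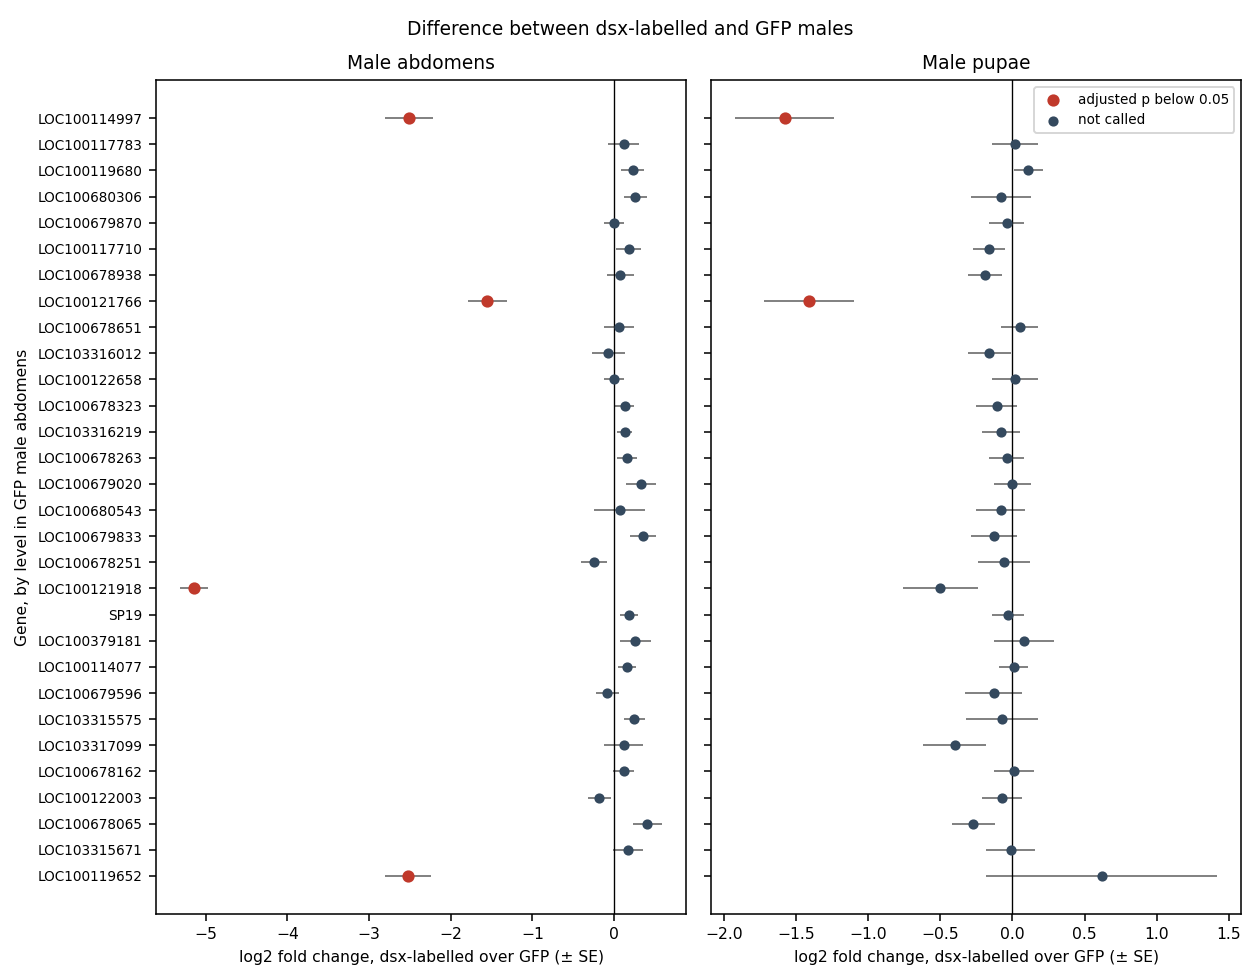
Log2 fold change of each gene, dsx-labelled over GFP, with its standard error, in male abdomens (left) and male pupae (right); red points have an adjusted p below 0.05, and the axes of the panels differ in range. The 4 called genes lie between -5.14 and -1.55 in abdomens, and the others lie between -0.24 and 0.41.

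In male pupae, collected 3 days after injection, 0 of the 30 genes were called higher and 2 were called lower with the dsx label, where 0.581% of genes tested were called higher and 0.484% lower. LOC100121766 had 110, 26.01, 28.73, 56.68 and 66.88 CPM in dsx-labelled male pupae, against 157.7, 145.3, 160.8, 90.97 and 177.8 CPM in GFP male pupae. Replicate 1 of the dsx-labelled pupae lay above replicate 4 of the GFP pupae, so the groups overlapped (log2 fold change -1.41 ± 0.31, adjusted p = 0.0317, edgeR). LOC100114997, not yet on, had 0.2264 to 0.4035 CPM in dsx-labelled and 0.7746 to 1.199 CPM in GFP male pupae (log2 fold change -1.58 ± 0.34, adjusted p = 0.0267, edgeR). Same-numbered libraries deviated together in this comparison, and with the replicate block 1 of the 30 was called: LOC100121766, while LOC100114997 had an adjusted p of 0.0677 (edgeR). Both calls were fragile. Without dsx-labelled replicate 2, 3 or 4 or GFP replicate 5 the count was 0, and without any other single library it was 1. Each gene was called in 7 of 15 alternatives. The fat body hexamerins summed to 208 to 569 CPM in dsx-labelled and 402 to 1311 CPM in GFP male pupae. Most of that sum was Hex70b, at means of 337.4 CPM in dsx-labelled and 947.8 CPM in GFP male pupae. Hex83 averaged 1.146 and 3.155 CPM in the same groups, and Hex109 was not lower, at 1.802 and 1.764 CPM. The part of these markers in the 2 calls was not tested.

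LOC100121918 differed between abdomen and pupa in how it stood to the label. It had 3.62 to 5.059 CPM in dsx-labelled and 5.343 to 6.238 CPM in GFP male pupae (log2 fold change -0.50). In the joint fit of male pupae and abdomens, the difference of its label effect, abdomen minus pupa, was -4.71 ± 0.19 on the log2 scale (adjusted p = 1.12e-12, edgeR). For LOC100121766, called in both, the difference was -0.21 ± 0.44 (adjusted p = 0.758, edgeR).

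In male heads LOC100114997 and LOC100119652 were abundant too. In GFP heads, male against female, 18 of the 30 had enough counts to be tested. Of these, 6 were higher in males and 1 was lower, where 17.8% of genes tested were higher and 16% lower. LOC100114997 had 19496, 19446, 8447, 5839 and 4977 CPM in GFP male heads and 0.3875 to 0.8364 CPM in GFP female heads (log2 fold change 14.16 ± 0.60, adjusted p = 7.06e-13, edgeR). LOC100119652 had 599.9, 556.8, 304.4, 273.7 and 215.6 CPM in GFP male heads and 0.5311 to 1.276 CPM in GFP female heads (log2 fold change 8.92 ± 0.50, adjusted p = 5.91e-11, edgeR). It was thus higher in GFP male heads than in GFP male abdomens, where it reached at most 60.82 CPM, although it was chosen as an abdomen gene.

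LOC100379181, LOC103317099, LOC100121766 and LOC100121918 were the other genes called higher in GFP male heads; the first pair was chosen after its values were seen. LOC100379181 averaged 44.12 ± 4.19 CPM in GFP male heads and 0.1068 ± 0.0487 CPM in GFP female heads, 8.78 ± 0.32 higher on the log2 scale (SE, n = 5 each; adjusted p = 6.66e-14, edgeR). LOC103317099 averaged 5.833 CPM in males and 0.3417 CPM in females, LOC100121766 10.39 CPM in males and 1.851 CPM in females, and LOC100121918 0.3112 CPM in males and 0.03443 CPM in females. The 1 gene called lower in males, LOC100678323, averaged 0.07341 CPM in males and 0.3215 CPM in females. LOC100678651, higher in males in pupae and abdomens, was found in the heads of both sexes: 42.17 to 46.56 CPM in GFP males and 58.38 to 67.64 CPM in GFP females, with no overlap and no call (edgeR log2 fold change -0.38 ± 0.19, adjusted p = 0.129).

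The male head libraries fell unevenly. GFP replicates 1 and 2 lay above GFP replicates 3 to 5 in both adult-onset genes, and dsx-labelled replicate 1 was the highest of its group in both. In these 3 libraries the muscle marker Tm1 was at 683, 676 and 679 CPM, against 1355 to 2053 CPM in the other 7 male heads. Without the 3 libraries, 6 of the 30 genes were called higher and 1 lower in GFP male than in GFP female heads.

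In heads, dsx-labelled against GFP males, 5 of the 18 genes tested were called, 3 higher and 2 lower, where 3.97% of genes tested were higher and 4.95% lower. LOC100114997 had 1939, 759.6, 711.9, 1000.0 and 985.2 CPM in dsx-labelled male heads, below every GFP male head (log2 fold change -3.45 ± 0.39, adjusted p = 6.11e-06, edgeR). Without the 3 uneven libraries its log2 fold change was -2.91. LOC100379181 had 16.85 to 33.77 CPM in dsx-labelled and 39.44 to 48.73 CPM in GFP male heads (log2 fold change -0.84 ± 0.20, adjusted p = 0.0112, edgeR). LOC100119652 was not called: it had 937.6, 318.6, 287.4, 312.3 and 296.7 CPM in dsx-labelled male heads, within and above the range of the GFP male heads (log2 fold change 0.12). The difference of its label effect, abdomen minus head, was -2.62 ± 0.50 on the log2 scale (adjusted p = 0.00168, edgeR), where 9.46% of genes tested had such a difference.

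All 3 genes called higher in dsx-labelled male heads, LOC100678938, LOC100679020 and LOC103316012, rested on 1 library, dsx-labelled male head replicate 3, and without it 0 were called higher and 2 lower. Without GFP replicate 2, 1 gene was called higher, LOC103316012, and without GFP replicate 1, 3, 4 or 5 there were 2, LOC103316012 and LOC100678938; in each case 2 were lower. LOC100678938, for example, had 42.11 CPM in that library and at most 0.2094 CPM in the other 4.

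That library held reads of many of the 26 genes that the main fit did not call between labels in male abdomens. The 26 summed to 456.8 CPM there, against 77.33 to 82.53 CPM in the other 4 dsx-labelled male heads and 89.14 to 104 CPM in GFP male heads. Of the 26, 14 were at 1 CPM or more and over 10 times the highest of the other 4. That count was made for male abdomen genes only, and the share of all genes in this library is not known. These 14 were at 3.54 to 63 CPM, from 0.746 to 11.3% of their mean in dsx-labelled male abdomens (median 2.99%).

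The reads did not follow abdominal levels gene by gene. LOC100117783, the gene of the 26 with the most CPM in dsx-labelled male abdomens (2303), was at 0.4067 CPM in head replicate 3, whereas LOC100119680, at 2259 CPM in those abdomens, was at 24.75 CPM. LOC100678323 and LOC103316219, chosen after their values were seen, had 572.1 and 537.3 CPM in dsx-labelled male abdomens and 0.1307 and 0.01453 CPM in head replicate 3, within or near the range of the other heads. The run of neighbours LOC100119680, LOC100679870 and LOC100679833 was at 24.75, 63.03 and 36.36 CPM, while of the other run LOC103316012 was at 15.09 CPM and LOC100678323 and LOC100117783 were at 0.1307 and 0.4067 CPM.

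The 51 male abdomen genes on by day 7 summed to 226.5 CPM in head replicate 3, against 158.9 to 223.2 CPM in the other 4 dsx-labelled male heads, and 1 of the 51 was at 1 CPM or more and over 10 times the highest of the other 4. The 5 genes that started at day 9 summed to 29.84 CPM, against 3.621 to 9.16 CPM. Of the markers, Hex109 was higher in head replicate 3 (2.95 CPM) than in the other 4 dsx-labelled male heads (0.536 to 2.46 CPM), and nanos was lower (0.0145 CPM, against 0.0279 to 0.249 CPM). The library lay within the range of the other 4 for oskar, Hex70b, Hex83, Tm1 and Tm2. None of these is a marker of the male reproductive tract.

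**Figure D3:**
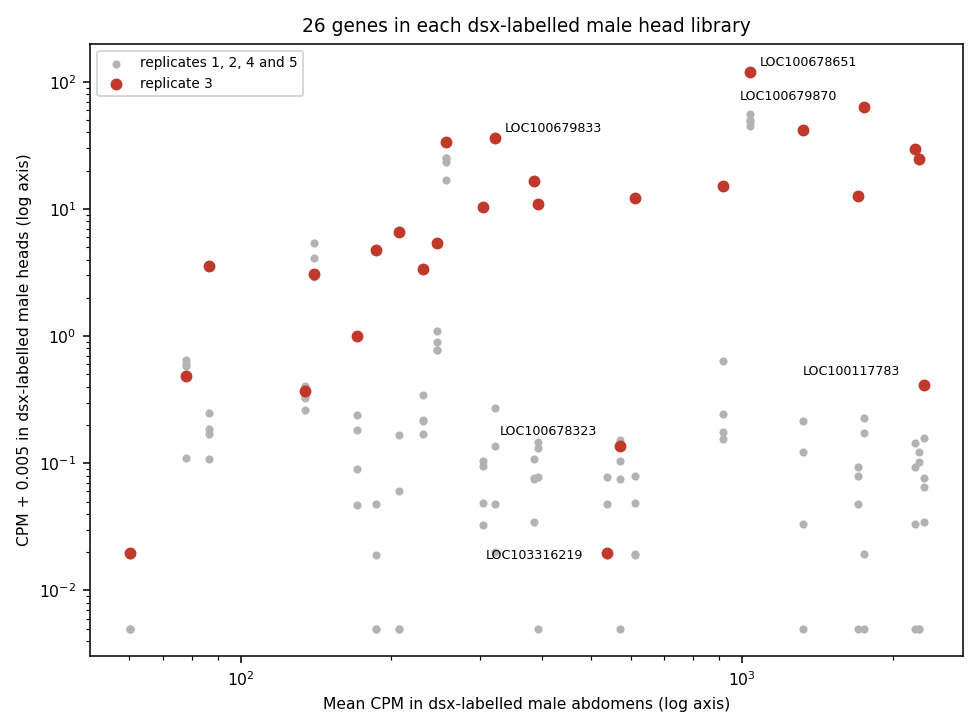
The 26 genes in dsx-labelled male head replicate 3 (red) and in the other 4 dsx-labelled male heads (grey), as CPM + 0.005, against their mean CPM in dsx-labelled male abdomens; both axes are logarithmic. For 14 genes the red point is over 10 times the grey ones, at 3.54 CPM or more, while LOC100117783 lies at 0.4067 CPM although its abdominal level is 2303 CPM.

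In thoraces most of the 30 genes were nearly silent: 26 averaged below 1 CPM in dsx-labelled and 27 in GFP male thoraces. The 30 still summed to 300.1 to 687.8 CPM in dsx-labelled and 3883 to 7506 CPM in GFP male thoraces, most of it LOC100114997. Of the 30, 14 could be tested. In GFP thoraces, male against female, 2 were higher and 1 lower, where 17.6% of genes tested were higher and 19.6% lower. LOC100114997 had 7417, 4201, 3828, 6205 and 6987 CPM in GFP male thoraces and 8.028 to 15.48 CPM in GFP female thoraces (log2 fold change 8.94 ± 0.37, adjusted p = 3.08e-12, edgeR). LOC100121766 had 22.4 to 82.42 CPM in GFP male and 0.6103 to 1.456 CPM in GFP female thoraces (log2 fold change 5.82 ± 0.43, adjusted p = 1.14e-08, edgeR). LOC100678162 was the gene lower in males, with a male mean of 0.2464 CPM and a female mean of 0.5362 CPM. LOC100119652, high in heads, averaged 0.5659 CPM in GFP male and 0.7656 CPM in GFP female thoraces.

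In dsx-labelled against GFP male thoraces, 2 of the 14 were lower and 0 higher, where 11.9% of genes tested were lower and 15% higher. LOC100114997 had 622.7, 490.6, 387.2, 522.6 and 267.1 CPM in dsx-labelled male thoraces, below every GFP male thorax (log2 fold change -3.66 ± 0.29, adjusted p = 4.85e-08, edgeR). Its fall was thus called in abdomens, heads and thoraces. In joint fits, the abdominal label effect minus that in thoraces was 1.15 ± 0.37 on the log2 scale (adjusted p = 0.0481, edgeR), a smaller fall in abdomens, where 13% of genes tested had such a difference, and minus that in heads it was 0.96 ± 0.54 (adjusted p = 0.333, edgeR). LOC103317099, chosen after its values were seen, was also called lower, from low levels: 0.093 ± 0.0832 CPM in dsx-labelled and 0.5788 ± 0.322 CPM in GFP male thoraces (log2 fold change -2.66 ± 0.80, adjusted p = 0.02, edgeR). That call was lost without dsx-labelled replicate 1, 2 or 3 (adjusted p = 0.05094, 0.0538 and 0.05583, edgeR). The count of the 14 was 1 without dsx-labelled replicate 2, and 4 without dsx-labelled replicate 5 or without GFP replicate 5. LOC100121766 had 15.3 to 58.69 CPM in dsx-labelled and 22.4 to 82.42 CPM in GFP male thoraces and was not called (log2 fold change -0.85 ± 0.34, adjusted p = 0.073, edgeR).

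**Figure D4:**
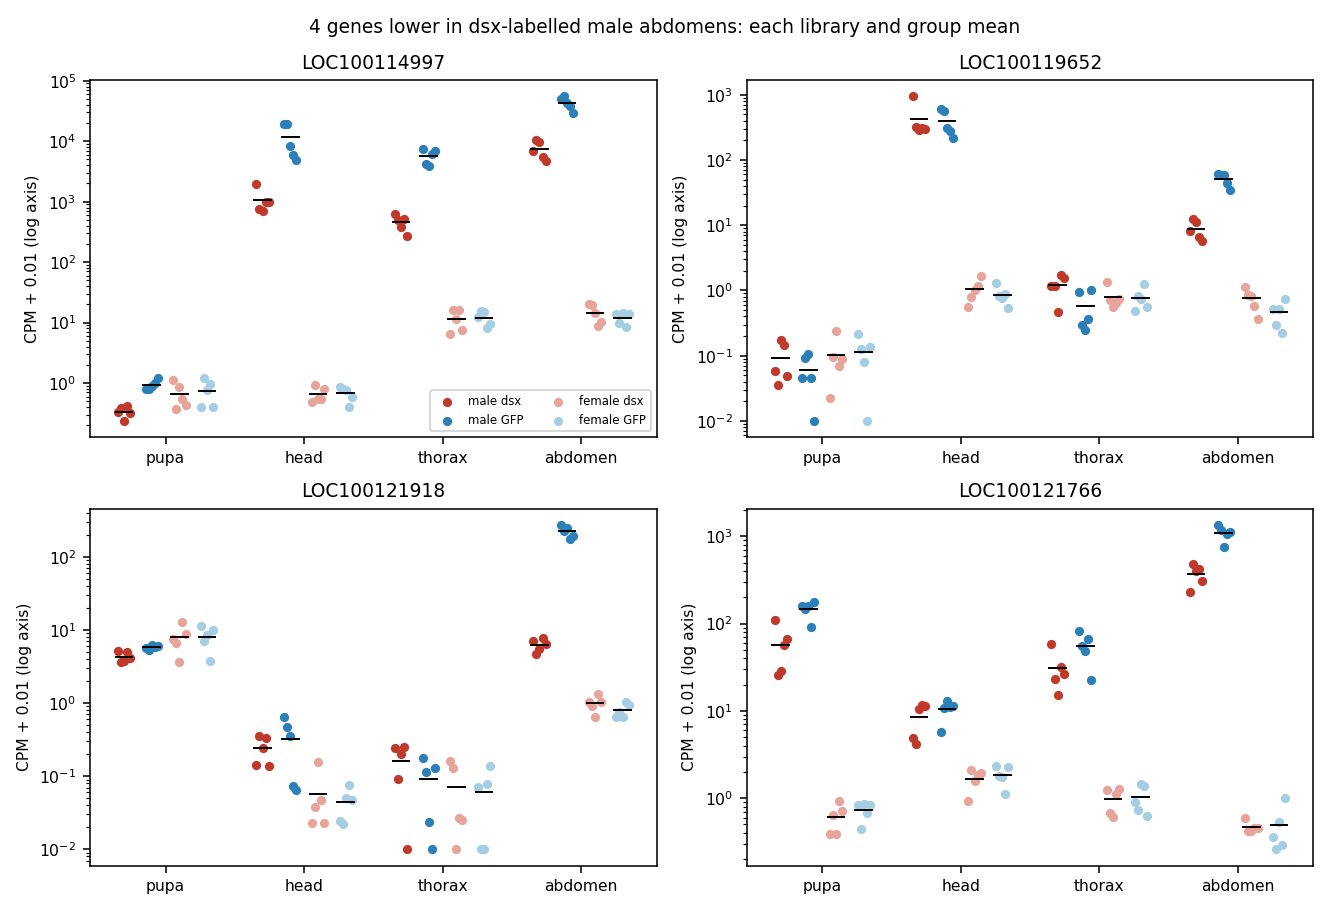
Level of LOC100114997, LOC100119652, LOC100121918 and LOC100121766 in each library of pupae, heads, thoraces and abdomens, as CPM + 0.01 on a logarithmic axis; black bars are group means of 5 libraries. LOC100114997 is lower in dsx-labelled than in GFP males in every adult part, LOC100119652 is lower in abdomens but not in heads, and LOC100121918 averages 4.304 to 8.021 CPM in the 4 pupal groups.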

How the data were processed

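Gene counts of 140 libraries were used as the authors deposited them, as whole, unnormalized read counts per gene. Libraries were made with the NEBNext Ultra kit and read as paired ends on a NovaSeq, per the labels' protocols. HISAT2 2.0.5 and HTSeq 0.6.1 are named, without a role, in the submitters' processing notes; for the genome build, annotation and strand setting, nothing is stated in the sources used here.

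CPM is counts divided by the column total, times 1000000, and is not per length, so levels are not compared between genes as abundance of transcripts. Each stage was fitted on its own over its 20 libraries with edgeR 4.0.16 in R 4.3.3 (TMM factors, filterByExpr at its minimum count of 10, quasi-likelihood test, Benjamini-Hochberg adjustment over all genes of the stage, call below 0.05); fold changes come from these fits, and SEs are the fold change over the square root of F. The fit was first tested on simulated data. The genes, lists and tests were chosen with earlier results of these data known. Alternatives were DESeq2 1.42.0, RLE size factors, no filter, only the groups compared, a replicate block and leaving out each library. No 2 replicates differed by less than sampling noise: the lowest chi-square per gene over 280 replicate pairs was 18.5.

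Same-numbered libraries deviated together in all 5 pairs (every r above 0.1) in 1 of the 10 comparisons, dsx-labelled against GFP male pupae (r = 0.16 to 0.66 over the 5 pairs); there the blocked value is given. The genes named are the 5 highest of each subset, those of greatest fold past the threshold in male abdomens and pupae, the 2 highest in other parts, and those next to the limits of the rule. The reference table holds no gene descriptions or sequences, so lists by function, protein and promoter features are not reported, and markers were limited to those with a symbol.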

Additional observations from a re-analysis of the deposited data

Results flagged for a closer look

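Each gene was taken in each group of 5 libraries where its mean was 5 CPM or more, 146 cases that share libraries. Of these, 10 had 1 library far from the other 4 (gap over range above 0.71, which chance gives in about 1 of 20 cases). Of the 10, 7 were highest values in dsx-labelled male heads. In replicate 3 these were LOC100680306 at 29.8 CPM, LOC100679870 at 63 CPM, LOC100678938 at 42.1 CPM, LOC100678651 at 120 CPM and LOC100679833 at 36.4 CPM. In replicate 1 they were LOC100114997 at 1939 CPM and LOC100119652 at 938 CPM, the library in which Tm1 was also low at 679 CPM. The other 3 were LOC100679870, lowest in GFP male pupae at 351 CPM, LOC100379181, highest in GFP male abdomens at 267 CPM, and LOC103315575, lowest in GFP male abdomens at 152 CPM. In dsx-labelled male heads, LOC100680306, LOC100679870, LOC100678938 and LOC100679833 passed the 5 CPM filter only through replicate 3. Each was at most 0.2653 CPM in the other 4 of these heads. Their flags there followed from the filter, so the 10 cannot be set against 1 of 20.

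The label effect in males differed between abdomens and another stage or part in 7 of 36 tests on genes with a mean of 5 CPM or more in GFP males of both (joint edgeR fits, adjusted p over all genes). The share called among all genes was 29.7% against pupae, 13% against thoraces and 9.46% against heads. Most of the 36 tests were against pupae, so the pooled 7 of 36 cannot be set against any 1 of these shares. The abdominal effect minus that in heads was -2.62 for LOC100119652 (adjusted p = 0.00168) and 1.11 for LOC100379181 (adjusted p = 0.000497). Minus that in pupae it was -4.71 for LOC100121918 (adjusted p = 1.12e-12), 0.60 for LOC100678065 (adjusted p = 0.0311), 0.41 for LOC100679833 (adjusted p = 0.0394) and 0.24 for LOC103315575 (adjusted p = 0.0263). Minus that in thoraces it was 1.15 for LOC100114997 (adjusted p = 0.0481). The parts may share adults, which these fits do not model.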

How the results depend on the processing

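Counts of the 30 genes called stayed within 1.5 times the main count, under every alternative run, in the 5 male-against-female comparisons; those between labels moved more. In male abdomens DESeq2 called 9 and the 2 groups alone 10, against 4. In female abdomens DESeq2 called 1, against 0. In male pupae the replicate block gave 1, and leaving out single libraries 0 to 1, against 2. In male thoraces DESeq2 gave 4, the replicate block 4 and leaving out single libraries 1 to 4, against 2. In male heads DESeq2, the 2 groups alone and the replicate block each gave 2, no filter gave 13 (11 higher, 2 lower) and leaving out single libraries 2 to 5, against 5. A filter on low counts keeps 18 of the 30 in heads and 14 in thoraces, so the rest have no test there. In the 9 comparisons other than male pupae at least 1 pair of same-numbered libraries had r below 0.1, and the replicates are taken to share only a number. In male heads 4 of 5 pairs had r of 0.44 to 0.77 and the other -0.45, 2 of 5 correlated best with their own number, and the block left 0 genes higher and 2 lower.

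Some uncalled genes near 0 changed sign. In male abdomens LOC100679870 (0.00 on the log2 scale) was at -0.05 with DESeq2 and with RLE size factors, -0.03 without the filter, -0.02 in the 2 groups alone, -6.9e-05 with the replicate block and -0.08 to 0.03 leaving out single libraries, and LOC100678651 was at -0.02 to 0.12. In male pupae, leaving out single libraries gave -0.02 to 0.07 for LOC100117783, -0.08 to 0.02 for LOC100679870, -0.07 to 0.07 for LOC103315671 and -0.08 to 0.03 for SP19. The cause was not tested. The comparison without 3 head libraries and the joint fits were chosen after seeing the data.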
